A study of Canis lupus with 20 samples.

Results

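The removal of a kidney was compared with a sham operation in 2 chambers of the dog heart, to see which differences in gene expression the chambers share and which depend on the chamber. All 20 of the 20 arrays of the series were used, grouped by operation and chamber as their titles give them. Normal dogs had right sided uninephrectomy or a sham operation, and heart tissue was taken 12 weeks later. The 4 groups were sham left atrium, uninephrectomy left atrium, sham left ventricle and uninephrectomy left ventricle, with 5 arrays in each. All 4 groups come from dogs that underwent an operation, so no group is free of surgery. Each operation was given to 6 dogs, of which 5 tissue samples per chamber went on arrays, 1 sample per array. RNA was measured on an Affymetrix canine array, on which several probes are summarized into a probe set. Of 42924 probe sets that are not controls, 30047 were bright enough to be tested, and they cover 11423 genes with a single symbol.

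The left atrium is a thin-walled, low-pressure chamber that stretches with blood volume and secretes natriuretic peptides, and the left ventricle is the thick-walled pump that works against arterial pressure. Loss of renal mass can act on both through blood volume, blood pressure and circulating factors such as angiotensin, aldosterone and phosphate-regulating hormones. A shared circulating signal and a chamber-specific load are the textbook routes by which the kidney reaches the heart.

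Signals are log2 values, so a difference of 1 is a doubling. The chamber difference of a gene is its uninephrectomy minus sham difference in the atrium, less the same difference in the ventricle. A positive value means that the atrial difference was the higher of the pair, and a negative value that the ventricular one was. The average is the mean of the atrial and the ventricular difference. Every ± is a standard error from the limma fit unless marked SD, and "called" means a Benjamini-Hochberg adjusted p under 0.05 over all 30047 tested probe sets.

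The array medians lay between 2.33 and 2.39. Atrial marker genes had array means of 8.52 to 9.19 in the atria and 4.20 to 5.50 in the ventricles, and ventricular markers 5.97 to 6.90 in the atria and 10.32 to 11.05 in the ventricles, so every array matched its chamber label. The 3' gap, by which 3' probe sets of the control genes GAPDH, ACTB and EEF1A exceed those further upstream and which widens as RNA degrades, was 1.19 ± 0.185 (SD) in sham atria and 1.10 ± 0.261 (SD) in uninephrectomized atria. It was 1.42 ± 0.271 (SD) in sham ventricles and 1.14 ± 0.151 (SD) in uninephrectomized ventricles. The chamber difference of the gap was 0.193 (two-sided exact permutation p = 0.379 over 63504 splits). In the sham groups, equally numbered atrial and ventricular arrays deviated from their group means together, so an animal's own deviation can enter both chambers' differences.

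No gene was called for a response that depends on the chamber, and none for a response shared by both. For the chamber difference limma called 0 of 30047 probe sets, and 893 (2.97%) had an unadjusted p under 0.05. Of these, 429 (1.43%) were positive and 464 (1.54%) negative. For the average of both chambers 0 were called, with 3432 (11.4%) at an unadjusted p under 0.05, 1780 of them positive (5.92%) and 1652 negative (5.50%). Uniform p-values would give 1502 at that level. The smallest adjusted p was 1 for the chamber difference and 0.0872 for the average. Passing in each chamber separately and in the same direction was the stricter form of a shared response, and 0 probe sets met it after adjustment (270, or 0.899%, at an unadjusted p under 0.05 in both, with 0.433% positive and 0.466% negative). The chambers taken alone each had 0 called in limma, with 6.69% of probe sets in the atrium and 6.67% in the ventricle at an unadjusted p under 0.05. These fits do not pair arrays by dog. If same-numbered sham arrays share a dog, the standard errors are too small for the average and too large for the chamber difference. With those sham arrays as random blocks in limma, 9.73% of probe sets reached that level for the average and 3.76% for the chamber difference.

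The size of chamber difference that these arrays could miss varied with the gene. The median standard error was 0.151 for the chamber difference and 0.0754 for the average, so the 95% confidence interval of a chamber difference reached a median of 0.316 to either side. For 18265 probe sets (60.8%) that interval lay within 0.5 of 0, and for 27220 (90.6%) within 1. Among the 14076 probe sets with a highest group mean of at least log2 4 the shares were 44.5% and 83.2%. Genes with wider intervals were left with no bound of that size on how far the chambers differed.

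The sizes of the atrial and the ventricular differences fell into a few patterns. A difference of at least 0.5 in both chambers was upward in 209 probe sets and downward in 65. It was at least 0.5 in the atrium alone in 587 and in the ventricle alone in 630. Only 9 probe sets passed 0.5 in opposite directions. The probe sets up by 0.5 in both chambers were also variable within groups, with a median largest within-group SD of 0.894 against 0.231 over all tested probe sets. For those down by 0.5 in both it was 1.11.

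**Figure D1:**
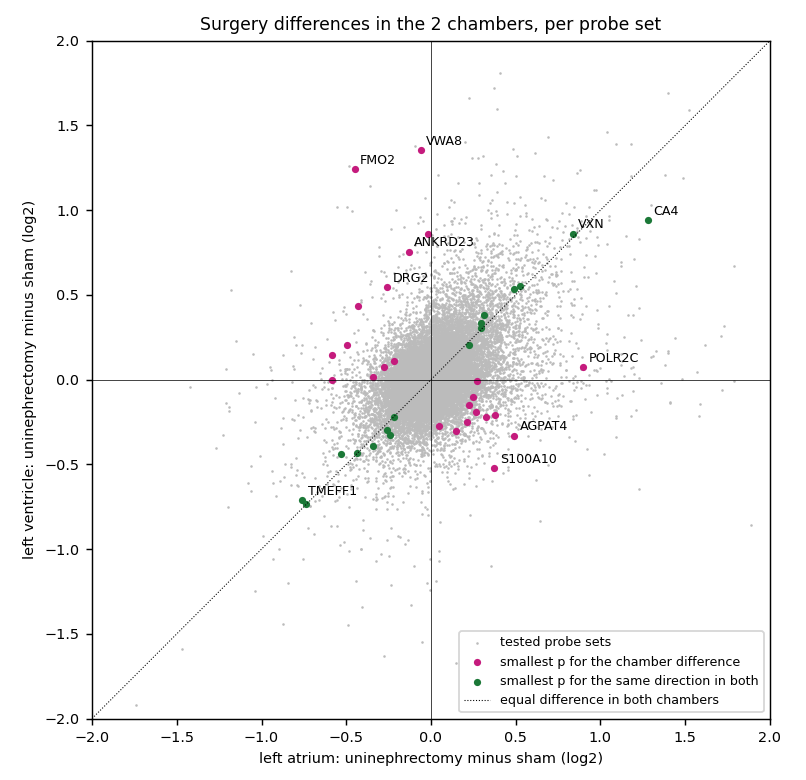
Uninephrectomy minus sham difference (log2) in the left atrium (x axis) and the left ventricle (y axis), 1 point per tested probe set, with 16 probe sets beyond the axes. Pink points are the genes with the smallest p for a chamber difference and green points those with the smallest p for the same direction in both chambers, with VWA8 at -0.06 and 1.35 and CA4 at 1.28 and 0.94.

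Among the named genes the smallest p for a chamber difference belonged to VWA8, a mitochondrial protein with an ATPase domain, whose difference lay in the ventricle. Sham ventricles read 6.60, 6.71, 5.73, 5.96 and 6.27 and uninephrectomized ventricles 7.48, 7.97, 8.0, 6.85 and 7.73. All uninephrectomized ventricles lay above all sham ventricles. Sham atria read 3.84, 3.82, 4.52, 3.89 and 3.38 and uninephrectomized atria 4.01, 3.51, 4.16, 3.73 and 3.74, and these groups overlapped. The VWA8 difference was 1.35 ± 0.23 in the ventricle and -0.06 ± 0.23 in the atrium, a chamber difference of -1.41 ± 0.33 (limma adjusted p = 1, unadjusted p = 0.00044). Without uninephrectomized ventricular array 4 the VWA8 difference in the ventricle was called (limma adjusted p = 0.0462).

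FMO2, a flavin-containing monooxygenase that oxidizes drugs and other foreign compounds, had differences of opposite sign in the chambers. Sham ventricles read 4.70, 5.13, 4.32, 3.65 and 4.00 and uninephrectomized ventricles 5.38, 4.80, 5.37, 6.76 and 5.70. Sham atria read 7.49, 8.76, 6.55, 7.09 and 8.05 and uninephrectomized atria 7.01, 6.79, 7.60, 7.13 and 7.14. The groups overlapped in both chambers. The atrial difference of FMO2 was -0.45 ± 0.38 and the ventricular one 1.24 ± 0.38, a chamber difference of -1.69 ± 0.54. A further FMO2 probe set gave -1.58.

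DRG2, a GTP-binding protein, read 6.14, 5.98, 6.12, 5.86 and 6.56 in sham ventricles and 6.95, 6.52, 6.81, 6.91 and 6.2 in uninephrectomized ventricles. In the atria DRG2 read 5.79, 5.78, 6.03, 5.98 and 6.10 after sham surgery and 5.77, 5.84, 5.83, 5.58 and 5.37 after uninephrectomy. Atrial values overlapped, as did ventricular values. The DRG2 difference was -0.26 ± 0.15 in the atrium and 0.55 ± 0.15 in the ventricle, which gives -0.81 ± 0.21.

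ANKRD23, a titin-binding ankyrin repeat protein of the stretch response, and FLNC, the filamin of the Z-disc, are muscle genes whose ventricular difference was the higher. ANKRD23 read 7.21, 6.41, 6.76, 6.86 and 7.92 in sham and 7.76, 7.94, 7.71, 7.86 and 7.68 in uninephrectomized ventricles. A single sham ventricle reached into the uninephrectomized range. In the atria ANKRD23 was dim, with means of 2.20 and 2.07, so a smaller atrial response could not have been seen there. Its chamber difference was -0.89 ± 0.30. FLNC differed by 0.86 ± 0.20 in the ventricle and -0.01 ± 0.20 in the atrium on a weak probe set, for a chamber difference of -0.87 ± 0.29. That probe set reached the log2 4 required for naming only in uninephrectomized ventricles, with a mean of 4.17. The brightest FLNC probe set gave -0.55, and all 3 FLNC probe sets were negative.

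The other negative chamber differences came mostly from lower atrial values after uninephrectomy. TUT7, a terminal uridylyltransferase of RNA decay, differed by -0.34 ± 0.07 in the atrium and 0.02 ± 0.07 in the ventricle, and all uninephrectomized atria lay below all sham atria. MAPT, the microtubule protein tau, differed by -0.59 ± 0.14 in the atrium and -0.00 ± 0.14 in the ventricle, again without overlap in the atrium, but its brightest probe set gave a chamber difference of -0.01. SPIDR, a scaffold of DNA repair, differed by -0.22 ± 0.08 in the atrium, also without overlap, and by 0.11 ± 0.08 in the ventricle. CAPRIN2, an RNA-binding protein, had differences of -0.43 ± 0.21 and 0.43 ± 0.21. RMND5A, a subunit of the CTLH ubiquitin ligase, had a chamber difference of -0.70 ± 0.24, SNCB (beta-synuclein) -0.73 ± 0.25 and PRKCZ, an atypical protein kinase C, -0.35 ± 0.10. The brightest RMND5A probe set gave -0.44 ± 0.25. Of the 2 SPIDR probe sets 1 had a negative chamber difference, as did 1 of 2 for PRKCZ and 2 of 3 for TUT7. TUT7 and SNCB reached the log2 4 required for naming only in sham atria, with means of 4.325 and 4.158. That filter favours genes that are high in the group where these were high. MAPT reached it only in the ventricles, and its atrial means were dim, at 3.28 and 2.69.

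In the other direction, where the atrial difference was the higher, AGPAT4 had the smallest p. This acyltransferase of phospholipid synthesis is an atrial gene here, with ventricular means near the low end of the scale. Sham atria read 6.13, 6.25, 5.58, 6.45 and 6.38 and uninephrectomized atria 6.62, 6.67, 6.75, 6.39 and 6.81. Sham ventricles read 2.38, 2.26, 2.46, 1.95 and 2.38 and uninephrectomized ventricles 2.09, 2.06, 1.96, 1.73 and 1.92. Both pairs of groups overlapped. The AGPAT4 difference was 0.49 ± 0.14 in the atrium and -0.33 ± 0.14 in the ventricle, a chamber difference of 0.82 ± 0.19 (unadjusted p = 0.000479), and the ventricular part was measured on a dim signal.

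S100A10, the light chain that binds annexin A2 at membranes, was bright in both chambers. Sham atria read 8.85, 9.25, 8.33, 9.41 and 9.30 and uninephrectomized atria 9.0, 9.55, 9.40, 9.59 and 9.47. Sham ventricles read 7.46, 8.10, 7.85, 7.77 and 7.73 and uninephrectomized ventricles 7.54, 6.66, 6.88, 7.73 and 7.47. The groups overlapped in each chamber. S100A10 differed by 0.37 ± 0.21 in the atrium and -0.52 ± 0.21 in the ventricle, giving 0.90 ± 0.30. All 6 S100A10 probe sets had a positive chamber difference, and the brightest gave 0.51.

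RCN1, a calcium-binding protein of the endoplasmic reticulum, and GDAP2 showed the same crossing pattern on smaller scales. RCN1 read 7.89, 8.01, 7.87, 8.43 and 8.44 in sham and 8.45, 8.79, 8.40, 8.62 and 8.27 in uninephrectomized atria, against 8.44, 8.24, 8.12, 8.43 and 8.32 and 8.31, 7.95, 8.10, 8.12 and 8.02 in the ventricles. Its groups overlapped in both chambers, and its chamber difference was 0.59 ± 0.17. GDAP2 had a chamber difference of 0.54 ± 0.15, but its brightest probe set gave 0.06. TMEM219, a receptor for IGFBP3, gave 0.45 ± 0.13, TTC14 0.45 ± 0.15 and CEP120, a centrosomal protein, 0.37 ± 0.13. The brightest probe sets gave 0.12 ± 0.11 for TTC14 and 0.03 ± 0.13 for CEP120.

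POLR2C, CAVIN3 and TMEM87A differed in the atrium with little difference in the ventricle, and each had all uninephrectomized atria above all sham atria. POLR2C, a subunit of RNA polymerase II, differed by 0.90 ± 0.18 in the atrium and 0.07 ± 0.18 in the ventricle on the named probe set. Its brightest probe set gave a chamber difference of 0.08. CAVIN3, a coat protein of caveolae, differed by 0.27 ± 0.06 and -0.01 ± 0.06, and TMEM87A, a membrane protein of the Golgi, by 0.25 ± 0.08 and -0.10 ± 0.08. Of the 2 CAVIN3 probe sets 1 had a positive chamber difference. FBXO9, a substrate receptor of a ubiquitin ligase, differed in the ventricle instead, by -0.28 ± 0.07 against 0.05 ± 0.07 in the atrium. SCYL3, a pseudokinase, gave 0.46 ± 0.15, and its brightest probe set -0.12.

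**Figure D2:**
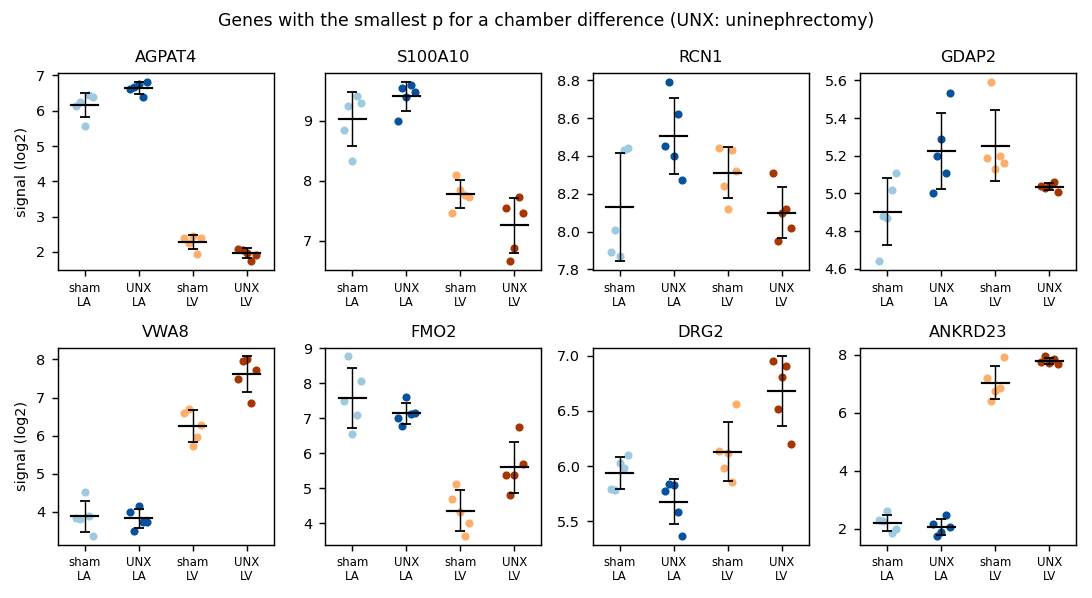
Log2 signal of 8 genes selected from the 12 per direction named for a chamber difference, 1 point per array in 4 groups of 5. Bars give the group mean and SD (LA left atrium, LV left ventricle, UNX uninephrectomy). Some named genes that are not shown had smaller p. The upper 4 genes have the higher difference in the atrium and the lower 4 in the ventricle, where VWA8 has means of 6.25 and 7.61.

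Groups that do not overlap were seen in 279 probe sets (0.929%) in the atrium and 298 (0.992%) in the ventricle. No probe set had this in both chambers in opposite directions. Opposite directions at an unadjusted p under 0.05 in each chamber were found for 19 probe sets, of which AGPAT4 and GDAP2 are described above. The others, named after their values were seen, include AGMAT at -0.34 in the atrium and 0.29 in the ventricle, ASB3 at 0.22 and -0.22, and IFT74, of intraflagellar transport, at 0.18 and -0.28. All 3 were dim, with group means from 2.71 to 3.05 for AGMAT, 3.17 to 3.84 for ASB3 and 2.77 to 3.495 for IFT74. Among the 893 probe sets with an unadjusted p under 0.05 for a chamber difference, 787 had atrial and ventricular differences of opposite sign. Choosing probe sets by their chamber difference favours opposite signs, and over all tested probe sets 61.2% had the same sign in both chambers. In 329 of the 893 the atrial difference alone also had an unadjusted p under 0.05, in 299 the ventricular one alone, in 19 both and in 246 neither. Probe sets with mean signals under log2 3 in all 4 groups made up 47.7% of the 893 and 41.3% of all tested probe sets. Those under log2 3 in both groups of exactly 1 chamber made up 8.62% and 4.91%.

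Some genes had larger chamber differences with wide errors. BDNF, the brain-derived neurotrophic factor, read 3.22, 2.47, 4.18, 4.27 and 5.02 in sham and 4.97, 8.49, 8.02, 4.19 and 3.82 in uninephrectomized ventricles. Those ventricles overlapped, and the atrial means were 2.31 and 2.11. The BDNF chamber difference was -2.26 (unadjusted p = 0.0376). PTGER3, a receptor for prostaglandin E2, read 2.51, 1.74, 4.98, 4.45 and 4.48 in sham and 6.57, 7.07, 4.66, 4.11 and 6.49 in uninephrectomized ventricles, with atrial means of 1.74 and 1.68, for a chamber difference of -2.21. LEAP2, the liver-expressed antimicrobial peptide that blocks the ghrelin receptor, gave -1.52 and DPP6, an auxiliary subunit of potassium channels, -1.47. The atrial signals of BDNF and PTGER3 were too dim to show whether the atrium responded.

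The named probe sets that passed 0.5 in opposite directions were few, and they were singled out after their values were seen. GNRH1, the gonadotropin-releasing hormone precursor, differed by 0.65 ± 0.52 in the atrium and -0.83 ± 0.52 in the ventricle. CFI, a protease that inactivates complement, differed by 0.69 ± 0.34 and -0.51 ± 0.34. SELP (P-selectin) differed by 0.94 ± 1.185 and -0.56 ± 1.185, and PLPPR5 by 0.62 ± 0.63 and -0.59 ± 0.63, so these errors exceeded the differences. DPP6 ran the other way, at -0.82 ± 0.385 and 0.64 ± 0.385, as did a probe set of FMO2, at -0.56 ± 0.44 and 1.02 ± 0.44. SELP in the ventricle, and PLPPR5 and DPP6 in the atrium, had group means under log2 3.

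Turning to shared responses, the genes below were ranked by their p in both chambers, so the likeness of their chambers follows in part from that choice. CTSB, the lysosomal protease cathepsin B, separated the operations in both chambers. Sham atria read 10.34, 10.13, 10.34, 10.36 and 10.40 and uninephrectomized atria 10.49, 10.65, 10.61, 10.48 and 10.45. Sham ventricles read 10.76, 10.58, 10.74, 10.57 and 10.73 and uninephrectomized ventricles 10.96, 10.95, 10.92, 10.78 and 10.81. Every uninephrectomized array lay above every sham array of its chamber. Groups without overlap in both chambers, in the same direction either way, were seen for 3 of 30047 probe sets (0.00998%). CTSB differed by 0.22 ± 0.07 in the atrium and 0.21 ± 0.07 in the ventricle, and the 95% confidence interval of its chamber difference ran from -0.18 to 0.21.

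PLA2G15, a lysosomal phospholipase, and CD63, a tetraspanin of lysosomes and exosomes, also had positive differences in both chambers. PLA2G15 differed by 0.31 ± 0.10 and 0.38 ± 0.10, and CD63 by 0.30 ± 0.10 and 0.30 ± 0.10. The CD63 interval for the chamber difference ran from -0.31 to 0.29, and its brightest probe set averaged 0.12 ± 0.04. No lysosome list was drawn up, so these genes are named by rank and not as a pathway.

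CA4, a carbonic anhydrase anchored to the surface of capillary endothelium, had the largest average difference of the genes ranked for a shared direction. Sham atria read 7.0, 6.94, 5.29, 6.85 and 6.5 and uninephrectomized atria 7.64, 7.89, 7.73, 8.41 and 7.31. Sham ventricles read 7.19, 8.15, 7.02, 7.87 and 7.28 and uninephrectomized ventricles 8.09, 8.18, 8.31, 8.40 and 9.23. The atrial groups did not overlap, and the ventricular groups did. CA4 differed by 1.28 ± 0.31 in the atrium and 0.94 ± 0.31 in the ventricle, an average of 1.11 ± 0.22 (limma adjusted p = 0.173).

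RGCC, a regulator of the cell cycle, differed by 0.53 ± 0.16 in the atrium and 0.55 ± 0.16 in the ventricle. Sham atria read 8.70, 8.68, 8.59, 8.64 and 8.23 and uninephrectomized atria 9.0, 9.29, 8.96, 9.31 and 8.93, which did not overlap, while 1 sham ventricle at 9.25 lay among the uninephrectomized ventricles. VXN (vexin) differed by 0.84 ± 0.27 and 0.86 ± 0.27. MKLN1, a subunit of the CTLH ubiquitin ligase, differed by 0.49 ± 0.16 and 0.53 ± 0.16, and SYNE1 (nesprin-1), which ties the nucleus to the cytoskeleton, by 0.30 ± 0.10 and 0.33 ± 0.10. By the average, ABLIM1, an actin-binding LIM protein, stood at 0.76 ± 0.16 and EPHX2, the soluble epoxide hydrolase, at 0.68 ± 0.15. The brightest ABLIM1 probe set averaged 0.04 ± 0.04, the brightest EPHX2 one 0.29 ± 0.08 and the brightest MKLN1 one 0.12 ± 0.06. The named ABLIM1 probe set reached the log2 4 required for naming only in uninephrectomized ventricles, with a mean of 4.74.

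On the lower side, PSME2, a subunit of the proteasome activator, had the smallest p for the average among the named genes. Sham atria read 9.38, 9.51, 9.61, 9.54 and 9.57 and uninephrectomized atria 9.14, 9.38, 9.34, 9.25 and 9.29. Sham ventricles read 9.27, 9.30, 9.71, 9.50 and 9.51 and uninephrectomized ventricles 9.15, 9.13, 9.22, 9.06 and 9.09. The ventricular groups did not overlap, and the atrial groups met at 9.38. PSME2 differed by -0.24 ± 0.08 and -0.33 ± 0.08, an average of -0.29 ± 0.05 (adjusted p = 0.173). A second PSME2 probe set, at -0.17 and -0.18, had no overlap in either chamber.

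MMD, a membrane protein of macrophage differentiation, read 8.59, 8.59, 9.42, 9.02 and 9.80 in sham and 8.18, 8.76, 8.37, 8.45 and 7.95 in uninephrectomized atria. In the ventricles MMD read 9.41, 9.12, 10.01, 9.93 and 9.62 and 8.86, 8.92, 9.07, 8.89 and 8.70. The atrial groups overlapped, and all uninephrectomized ventricles lay below all sham ventricles. MMD differed by -0.74 ± 0.22 in the atrium and -0.73 ± 0.22 in the ventricle. The interval of its chamber difference, -0.65 to 0.63, leaves room for unequal responses, and its brightest probe set averaged -0.33 ± 0.11.

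TMEFF1, a transmembrane protein with follistatin domains, differed by -0.76 ± 0.23 in the atrium, without overlap, and -0.71 ± 0.23 in the ventricle. UBFD1, a ubiquitin domain protein, differed by -0.34 ± 0.10 and -0.39 ± 0.10, and KCMF1, a ubiquitin ligase, by -0.22 ± 0.07 in each chamber. CDC123, an assembly factor of the translation initiation factor eIF2, differed by -0.26 ± 0.08 and -0.29 ± 0.08. CAMTA1, a calmodulin-binding transcription activator, gave -0.44 ± 0.14 in both chambers, and ADAL -0.53 ± 0.14 and -0.44 ± 0.14. By the average, NUDCD1 stood at -0.26 ± 0.05, MPHOSPH9 at -0.31 ± 0.06 and TLN1 (talin), which links integrins to actin, at -0.66 ± 0.13. The brightest probe sets of several of these genes had averages closer to 0 or of the other sign. For TLN1 it was 0.15 ± 0.07, for CAMTA1 -0.10 ± 0.06 (4 of 6 probe sets negative), for TMEFF1 -0.16 ± 0.12, for CDC123 -0.15 ± 0.05 and for ADAL -0.21 ± 0.10. Of the 3 KCMF1 probe sets 1 was negative.

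**Figure D3:**
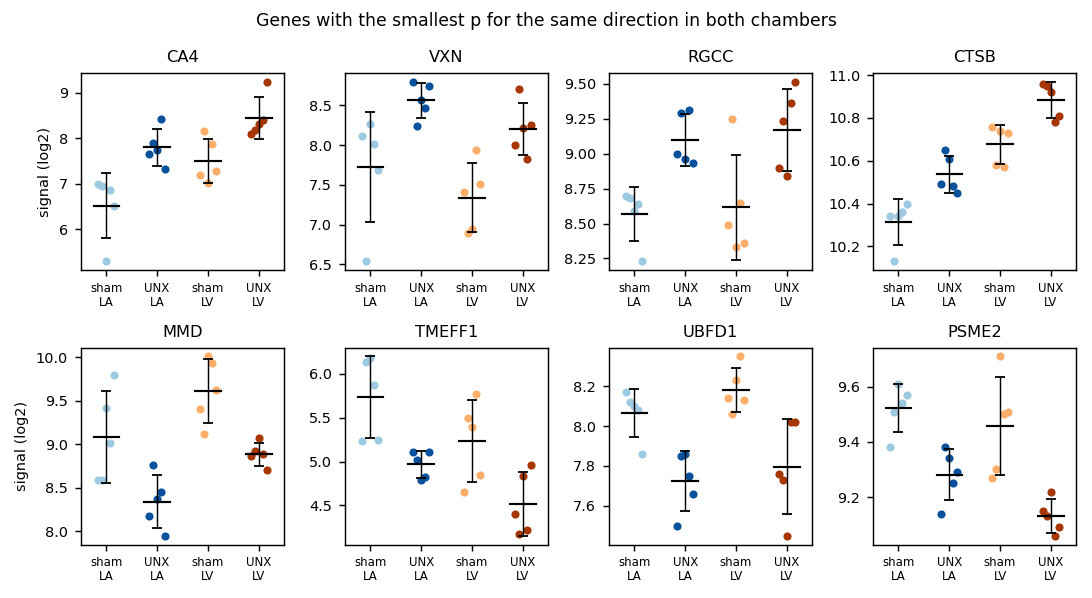
Log2 signal of 8 genes selected from the 8 per direction named for the same direction in both chambers, 1 point per array in 4 groups of 5. Bars give the group mean and SD (LA left atrium, LV left ventricle, UNX uninephrectomy). Some named genes that are not shown had smaller p. CA4 and CTSB lie higher and MMD and PSME2 lower after uninephrectomy in both chambers, by 0.22 and 0.21 for CTSB.

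The probe set with the smallest p for the average has no gene symbol in the annotation used, and its signal was either high or near the low end of the scale. Sham atria read 9.98, 10.29, 8.01, 7.92 and 7.88 and uninephrectomized atria 2.12, 2.27, 8.05, 2.86 and 1.95. Sham ventricles read 10.27, 10.69, 8.51, 8.58 and 8.51 and uninephrectomized ventricles 8.33, 2.34, 2.39, 2.1 and 2.60. All 10 sham arrays were high, and of the 10 uninephrectomized arrays 1 in each chamber was high, at 8.05 and 8.33. Each operation was given to 6 dogs, so these 10 arrays are not 10 separate animals, though the fit treats them so. Sham arrays 1 and 2 were the highest in both chambers. The average was -5.56 ± 0.84 (limma adjusted p = 0.0872) and the chamber difference 0.39 (unadjusted p = 0.818). It was called when the filter kept only probe sets with a highest group mean of at least log2 4 (adjusted p = 0.0488) and when the spread was modelled as a trend on signal (adjusted p = 0.0389).

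Further genes with large like differences in both chambers varied widely within groups and were chosen after their values were seen. CCN2, the connective tissue growth factor, differed by 1.40 in the atrium and 1.69 in the ventricle, an average of 1.54 ± 0.55, and its brightest probe set by 0.63 and 0.77, an average of 0.70 ± 0.38. FECH, the last enzyme of haem synthesis, differed by 1.18 and 1.39, and MTOR, the kinase of growth control, by 1.09 and 1.39. In sham ventricles MTOR read 5.15, 5.50, 2.78, 2.95 and 4.43, where the 3' gap was 1.11, 1.25, 1.83, 1.46 and 1.46. In uninephrectomized ventricles it read 6.01, 5.40, 6.38, 6.27 and 3.72, with gaps of 1.17, 1.23, 0.944, 1.04 and 1.32. The lowest MTOR reading of each ventricular group thus had the widest gap, and the part of RNA quality in these differences was not tested. VANGL1, of planar cell polarity, differed by -0.90 and -1.0, and CYP7B1, an oxysterol hydroxylase, by -0.76 and -1.06.

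Gene lists were described by the number of members with positive differences and by their medians, beside all 11423 genes. Over all genes 50.7% had a positive chamber difference, 48.1% a positive atrial and 47.5% a positive ventricular difference, and each median lay within 0.01 of 0. For the chamber difference 1.35% of genes were positive and 1.45% negative at an unadjusted p under 0.05. No member of any list was called, and the lists were not tested.

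Structural matrix genes had mostly positive differences in the atrium and medians near 0 in the ventricle, and matrix proteases and their inhibitors did not share this, with 7 of 14 positive in each chamber and an atrial median of -0.01. Of 20 collagens and other fibrillar matrix genes, 17 were positive in the atrium, 12 in the ventricle and 14 for the chamber difference, with medians of 0.21, 0.03 and 0.25. FN1 (fibronectin) differed by 0.58 in the atrium and 0.05 in the ventricle, COL5A2 by 0.43 and -0.00, and COL1A2 by 0.41 and 0.14. The basement membrane collagens COL4A1 and COL4A2 had chamber differences of -0.10 and -0.23. Of 19 matrix glycoproteins and proteoglycans, 16 were positive in the atrium and 11 in the ventricle, with medians of 0.32 and 0.04. VCAN (versican) differed by 1.04 and 0.17. POSTN (periostin), secreted by activated fibroblasts, differed by 1.57 ± 0.90 and 0.04 ± 0.90. Its means were dim in sham atria and in both ventricular groups. The collagen median for the chamber difference was 0.15 if sham atrial array 1 was left out and 0.41 if array 5 was, and the glycoprotein median for the chamber difference, 0.16, was 0.09 without sham ventricular array 1 and 0.28 without uninephrectomized atrial array 3.

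Fibroblast markers had the same signs as the matrix genes and share several of them. Of 13 fibroblast markers 11 were positive in the atrium, 10 in the ventricle and 10 for the chamber difference, with medians of 0.31, 0.07 and 0.25. Their array means ranged from 8.07 to 8.89 in sham atria and 8.54 to 9.07 in uninephrectomized atria, and from 7.54 to 7.92 and 7.50 to 7.93 in the ventricles. The median chamber difference was 0.14 without sham atrial array 3. MFAP5, of elastic microfibrils, had a chamber difference of 0.60 ± 0.27. Of the 13 markers 1 was positive and 1 negative at an unadjusted p under 0.05 for the chamber difference, against 1.35% and 1.45% of all genes. In tissue RNA more cells of a type and more RNA per cell cannot be told apart, and the part of fibroblast number in the matrix values was not tested.

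Complement genes had the same shape. Of 20 members 17 were positive in the atrium, 8 in the ventricle and 14 for the chamber difference, with medians of 0.20, -0.01 and 0.18. CLU (clusterin), which blocks the terminal complex, differed by 0.71 in the atrium and -0.28 in the ventricle, for a chamber difference of 0.99 ± 0.35 (unadjusted p = 0.0104). C6, a component of that complex, read 1.73, 5.75, 3.12, 2.64 and 5.45 in sham and 7.39, 11.12, 3.37, 7.85 and 6.80 in uninephrectomized atria, and 7.74, 8.44, 4.39, 4.95 and 4.27 and 3.58, 8.27, 6.11, 7.12 and 6.36 in the ventricles. High and low arrays occurred in both operations, and the C6 chamber difference was 3.24 ± 1.75. Of 14 macrophage and monocyte markers, which include C1QA, 10 were positive in the atrium and 6 in the ventricle. The complement median for the chamber difference was 0.28 without uninephrectomized ventricular array 1 and 0.12 without uninephrectomized ventricular array 2.

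Cytosolic ribosomal protein genes had small chamber differences that were nearly all of the same sign. Of 39 members 36 were positive for the chamber difference, 24 in the atrium and 5 in the ventricle, with medians of 0.09, 0.01 and -0.09. RPL26 stood at 0.56 ± 0.21, and the rest had unadjusted p of 0.05 or more. The 3' gap also differed most in the ventricle, by -0.283 (exact permutation p = 0.0635). With the gap as a covariate the median was 0.05 and 35 members were positive, and it was 0.05 without sham atrial array 3.

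Cardiomyocyte genes leaned slightly the other way. Of 11 cardiomyocyte markers 1 had a positive chamber difference, 4 a positive atrial and 8 a positive ventricular difference, with medians of -0.07, -0.03 and 0.07. Of 25 sarcomere genes 6 had a positive chamber difference, with a median of -0.07. ACTA1, the skeletal actin that is re-expressed under load, ran against this at 0.59 ± 0.24, with 0.55 in the atrium and -0.04 in the ventricle. Without uninephrectomized ventricular array 4 the medians of both lists were -0.03.

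Metabolic lists had median chamber differences close to 0. Of 26 oxidative phosphorylation genes 9 had a positive chamber difference (median -0.02), and of 25 fatty acid oxidation genes 11 did (median -0.02). FABP3, the heart fatty acid binding protein, was an exception at 0.32 ± 0.14, with 0.41 in the atrium, where groups did not overlap, and 0.09 in the ventricle. ENO1, a glycolytic enolase, stood at 0.28 ± 0.11. Of 19 ketone and mitochondrial matrix enzymes 3 were positive, VWA8 among the others, with a median of -0.06, and with the 3' gap as a covariate 10 were positive and the median was 0.00.

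The interferon, immediate early and oxidative stress lists had positive medians in both chambers. Their median chamber differences were -0.095, -0.135 and -0.057. Of 18 interferon response genes 14 were positive in the atrium and 17 in the ventricle, with medians of 0.11 and 0.17, but the single genes had wide errors, as in MX1 at 0.13 and 0.23 with a chamber difference of -0.11 ± 0.66. Of 16 immediate early genes, which respond to stimuli within minutes, 12 and 14 were positive, with medians of 0.18 and 0.24. FOS differed by 0.51 and 0.79, and EGR1 by 0.27 and 0.73. Of 21 oxidative stress genes 14 and 16 were positive, with medians of 0.05 in each. TXNRD1 (thioredoxin reductase) differed by 0.17 and 0.24. The median chamber difference changed sign for the interferon list without uninephrectomized ventricular array 1 (0.11) and for the immediate early list without sham atrial array 5 (0.06). The interferon median was -0.308 without sham ventricular array 3. With the 3' gap as a covariate it was -0.328 (3 of 18 positive), and the immediate early one -0.156 (3 of 16 positive). The oxidative stress median turned to 0.004 with that covariate, with 12 of 21 members positive against 6 without it.

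Other genes with differences of the same sign in both chambers belonged to several lists. RCAN1, an inhibitor of calcineurin, differed by 0.72 in the atrium and 1.18 in the ventricle, an average of 0.95 (unadjusted p = 0.0012). PPARA, a nuclear receptor of fatty acid metabolism, differed by 0.73 and 0.55, while its target CPT1B, which carries fatty acids into mitochondria, differed by -0.26 and -0.23. CD59, which blocks the terminal complement complex, differed by 0.30 and 0.37, unlike the complement list as a whole. NR2F2, a nuclear receptor of atrial identity, differed by -0.44 and -0.46.

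**Figure D4:**
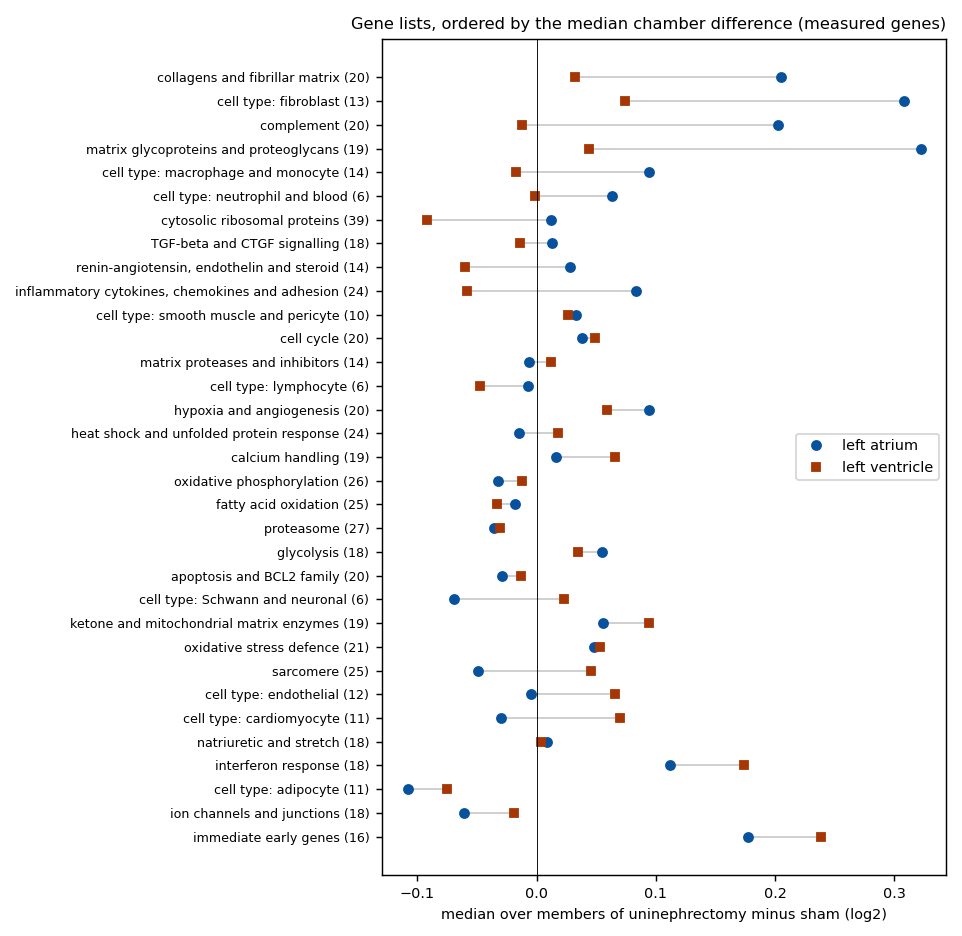
Median uninephrectomy minus sham difference (log2, x axis) over the measured members of each gene list, in the left atrium (circles) and the left ventricle (squares), with the number of measured genes in brackets. Lists are ordered by their median chamber difference. Collagens, fibroblast markers and complement genes stand at 0.21, 0.31 and 0.20 in the atrium and at 0.03, 0.07 and -0.01 in the ventricle.

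Apoptosis genes held the most members with a small p for the chamber difference. Of 20 measured, 1 was positive and 3 were negative at an unadjusted p under 0.05, and the list median was -0.03. BNIP3L, a mitochondrial receptor of mitophagy, stood at 0.48 ± 0.18. BAD, which promotes cell death, stood at -0.80 ± 0.36, XIAP, a caspase inhibitor, at -0.39 ± 0.12 and CASP9, the initiator caspase, at -0.19 ± 0.08. XIAP and CASP9 were under log2 3 in all 4 group means, and BAD in the ventricle.

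BDH1, MYL2, MYH7, ATP2A2, NPPB, TGFB1, COL3A1 and COL1A1, genes of cardiac load, fibrosis, contraction and metabolism, had chamber differences with 95% confidence intervals that include 0. NPPB (B-type natriuretic peptide) stood at 0.49 ± 1.17, with values from -0.49 (sham atrial array 3 left out) to 1.13 (sham atrial array 5 left out). COL1A1 stood at 0.45 ± 0.44 (0.17 without sham atrial array 1), COL3A1 at 0.23 ± 0.45 (-0.13 if sham atrial array 1 was left out, 0.46 if array 5 was) and TGFB1, a profibrotic cytokine, at -0.21 ± 0.17. MYH7, the beta myosin heavy chain, stood at -0.11 ± 0.14 (-0.04 without uninephrectomized atrial array 4 and -0.18 without uninephrectomized atrial array 2). ATP2A2, the calcium pump of the sarcoplasmic reticulum, stood at -0.00 ± 0.10, and its sign turned under median and quantile scaling. MYL2, the ventricular light chain, stood at 1.02 ± 0.80, and at 0.35 without uninephrectomized atrial array 4. BDH1, of ketone metabolism, stood at 0.13 ± 0.37 (-0.04 if sham atrial array 1 was left out, 0.33 if array 4 was).

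MYL7, the atrial light chain, had a chamber difference of 0.42 ± 0.19 (limma adjusted p = 1, unadjusted p = 0.0393). Sham ventricles read 11.79, 12.73, 12.16, 12.59 and 12.28 and uninephrectomized ventricles 11.70, 11.55, 11.78, 11.99 and 12.01. In the atria MYL7 read 14.20, 14.48, 14.32, 14.32 and 14.33 and 14.27, 14.23, 14.17, 14.33 and 14.20. The groups overlapped in both chambers. The ventricular difference of MYL7 was -0.51 ± 0.13 and the atrial one -0.09 ± 0.13. HSD11B1, which regenerates active glucocorticoid, read 4.24, 4.03, 4.37, 4.31 and 4.07 in sham and 8.03, 9.71, 4.92, 7.52 and 4.21 in uninephrectomized atria, for a chamber difference of 2.21 ± 1.37. Among the ventricles HSD11B1 read 5.45, 4.84, 5.86, 5.03 and 3.77 after sham surgery and 5.14, 9.39, 4.79, 3.97 and 3.96 after uninephrectomy, where a single array was high.

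**Figure D5:**
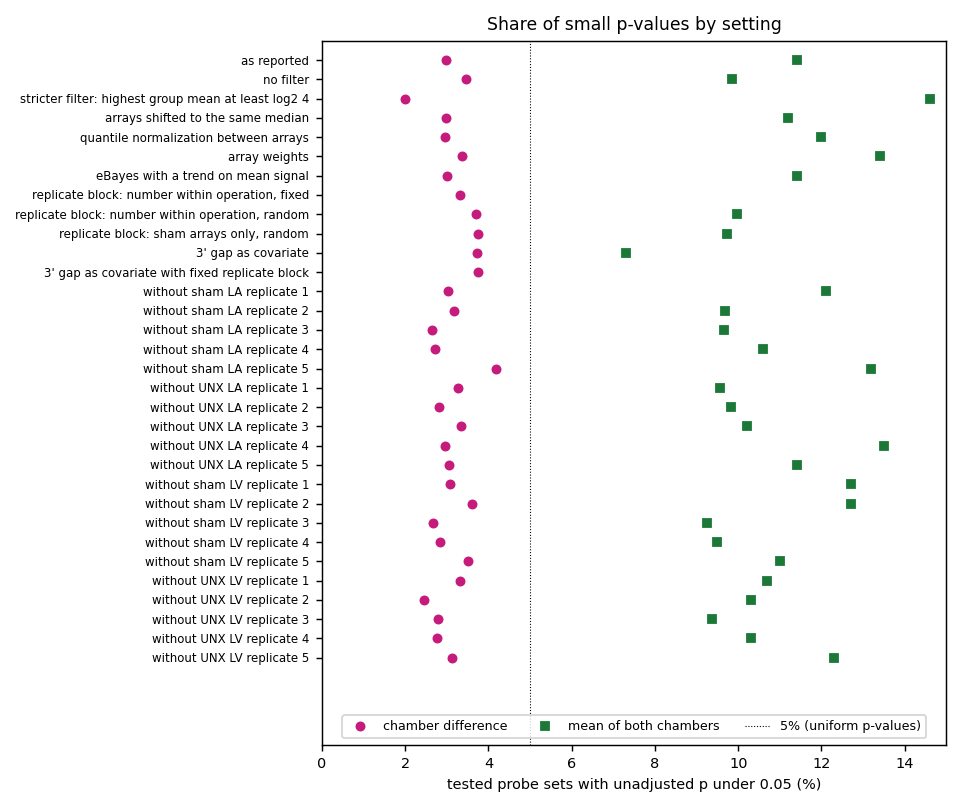
Share of tested probe sets with an unadjusted p under 0.05 (x axis, percent) under each processing setting, for the chamber difference (circles) and the average of both chambers (squares), with the dotted line at the 5% that uniform p-values give. The chamber difference lies under the line in each setting, at 2.97% as reported, and the average above it, at 11.4% as reported. The average has no value under the 2 fits with a fixed block.

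Under each processing setting shown in the plot of shares, 0 probe sets were called for the chamber difference by limma, with 282 to 1486 at an unadjusted p under 0.05. The average had 2195 such probe sets with the 3' gap as a covariate, against 3432 without it, and that gap had a correlation of 0.924 with the first component of the within-group deviations over the 20 arrays, given as a description.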

How the data were processed

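Left atrial and left ventricular RNA of dogs was measured on 20 Affymetrix canine arrays, 5 per group. Per the labels' protocols, Trizol was used for RNA and an Affymetrix IVT Express protocol for biotin labelling. The authors deposited log2 values, from 0.435 to 15, which were used unchanged. Their summarization, background correction and normalization are not given in the sources used here. Dim genes lie close together near the bottom of the scale, and their differences depend on that step.

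Of 43035 probe sets 111 controls and the 30% with the lowest mean (under log2 1.87) were left out. Symbols came from the platform annotation supplied, where 29264 probe sets have a single symbol, 439 have several and 13332 are unlisted. No sequences are shown. A group-means model of all 20 arrays (16 residual degrees of freedom) was fitted by lmFit and eBayes of limma 3.58.1, under R 4.3.3, with two-sided tests, and the method was checked on simulated data.

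Named genes have 1 symbol and a highest group mean of at least log2 4, at the probe set with the smallest p. They are the 12 with the smallest chamber-difference p in each direction, the 8 with the smallest larger p of both chambers, the 6 with the smallest average p, and NPPB, COL1A1, COL3A1, TGFB1, MYH7, MYL2, MYL7, ATP2A2, C6, HSD11B1, FABP3, BDH1 and VWA8 (brightest probe set for these). Lists use the brightest probe set of each gene, and list members given were chosen after their values were seen. Members, lists and rules were chosen with earlier results of these data known.

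The labels number the arrays but do not say that equal numbers are the same dog. Correlations of the deviations of same-numbered sham arrays were 0.463, 0.226, 0.373, 0.295 and 0.209, so these numbers were taken, from the data, to pair the chambers. In uninephrectomized dogs they ran from -0.235 to 0.115. The fit has no block. The alternatives were other filters, scalings, array weights, a trend in eBayes, replicate blocks, the 3' gap as a covariate, and leaving out each array.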

Additional observations from a re-analysis of the deposited data

Results flagged for a closer look

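Each group of 5 arrays was searched for a lone highest or lowest value whose gap to the nearest array was a large share of the group's range, which chance gives in about 1 in 20 groups. Of 232 groups, 4 for each of 57 named probe sets and 4 for the 3' gap, 17 had such a value. Among genes named for a chamber difference, GDAP2 read 5.59 in sham ventricle 2 (nearest 5.20), POLR2C 5.59 in uninephrectomized atrium 3 (nearest 5.47) and CEP120 6.09 in sham ventricle 4 (nearest 5.80). FLNC read 2.71 in sham ventricle 3 (nearest 3.36), and MAPT 3.04 in uninephrectomized atrium 4 (nearest 2.67).

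Among genes named for a shared direction, RGCC read 8.23 in sham atrium 5, CTSB 10.13 in sham atrium 2, MKLN1 6.40 in uninephrectomized atrium 4 and CA4 9.23 in uninephrectomized ventricle 5. SYNE1 read 8.29 in sham atrium 1, where the nearest sham atrium read 7.84. UBFD1 read 7.86 in sham atrium 5, CAMTA1 8.13 in sham ventricle 2, EPHX2 7.04 in uninephrectomized atrium 4 and NUDCD1 6.97 in sham ventricle 2. TLN1 read 3.56 in uninephrectomized atrium 1 and 3.39 in sham ventricle 5. HSD11B1 read 9.39 in uninephrectomized ventricle 2, where the nearest array read 5.14.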

How the results depend on the processing

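For the chamber difference limma called 0 probe sets under every alternative run, with 736 to 1258 at an unadjusted p under 0.05 when arrays were left out in turn, 1486 without a filter and 282 with the stricter filter. The replicate block also left 0 called, with 996 (fixed), 1110 (random) and 1130 (sham arrays only) at an unadjusted p under 0.05. For the average, the stricter filter and eBayes with a trend each called 1 probe set, the unnamed one described above, and leaving out arrays called 0 to 1 (1 without uninephrectomized atrium 3, sham ventricle 3 or uninephrectomized ventricle 1). The average had 2994 probe sets at an unadjusted p under 0.05 with the random block and 2195 with the 3' gap as a covariate. Within chambers, leaving out arrays called 0 to 1 in the atrium (1 without sham atrium 5) and 0 to 4 in the ventricle (4 without sham ventricle 1, 1 without uninephrectomized ventricle 1, and VWA8 without uninephrectomized ventricle 4).

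The sign turned for NPPB (-0.51 with gap and fixed block together, -0.49 to 1.13 without single arrays), COL3A1 (-0.13 to 0.46), BDH1 (-0.0432 to 0.33) and ATP2A2 (0.0077 with equal medians, 0.0343 with quantile scaling, -0.0401 to 0.0459 without single arrays). The cause was not tested. No other named gene changed the sign of the chamber difference or average it was named for, or its side of the adjusted threshold there. The median of the ventricular markers was 0.37, and 0.67 without sham ventricle 2, 0.16 without uninephrectomized ventricle 2 and 0.235 with the gap as a covariate. The gap was also recomputed without each array, a choice made after seeing the data. The block changed no call. Each uninephrectomized atrial array correlated best, at 0.167 to 0.536, with a different ventricular array of another number, so blocks by number may join different dogs there, and the sham-only block avoids this. Signals near the low end, and 5 arrays per group, limit what could be seen.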

Other observations

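Probe sets without a gene symbol held some of the clearest patterns. The first had a chamber difference of 1.82 (unadjusted p = 0.000197), with means of 5.47 in sham and 3.80 in uninephrectomized ventricles and of 2.20 and 2.35 in the atria. Another had a chamber difference of -1.48 (unadjusted p = 0.00123), with ventricular means of 6.53 and 7.92. A further probe set had no overlap between operations in either chamber, with differences of 0.61 in the atrium and 0.90 in the ventricle. The last had an average of 0.83 ± 0.15 and was called by limma when sham ventricle 3 was left out.

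Adipocyte markers had negative differences in both chambers. Of 11 measured, 1 was positive in the atrium and 3 in the ventricle, with medians of -0.11 and -0.08. Their array means ranged from 4.92 to 6.64 in sham atria and 4.98 to 5.83 in uninephrectomized atria, so the groups overlapped, and the median chamber difference of -0.13 was 0.09 without sham atrial array 3. Atrial marker genes were positive in 4 of 11 in each chamber, with medians of -0.05 in the atrium and -0.27 in the ventricle. Of 27 proteasome genes 5 were positive in the atrium and 10 in the ventricle, with medians of -0.04 and -0.03, and PSME2 had the smallest p among them.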
